A study of Mus musculus with 79 samples.

Results

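The 9 homing and chemokine receptor genes examined here are Ccr2, Ccr4, Ccr6, Ccr8, Ccr9, Cxcr4, Cxcr6, Gpr15 and Itgb7, taken by name from a table of 20465 mouse gene symbols. Mouse T cells carrying the division dye CFSE were cultured with the cytokines IL-1b, IL-6 plus IL-23 to give pathogenic T helper 17 cells (Th17p), or with TGFb and IL-6 to give non-pathogenic ones (Th17n). Each culture received 20 µM EGCG, a green tea catechin, or its solvent DMSO, or else 50 µM DHEA, a steroid hormone, or its solvent methanol. RNA came from unsorted cells (Total) and from cells sorted after exactly 1 division (Div.1), which made 16 groups of cell type, treatment and sort. The mouse strain, age and tissue of origin, and the genotype, were not given in the sources used here, and the design described 5 mice per condition. Of the 16 groups, 14 had 5 libraries and the Th17p and Th17n DMSO Div.1 groups had 4 each. The DMSO and EGCG libraries carried the well columns 1 to 5 and the methanol and DHEA libraries the columns 6 to 10, so that each compound was compared with its own solvent.

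Values were in TPM, a transcript abundance that is scaled for transcript length and library total, so levels of different genes can be set side by side. The sequencing depth was unknown. Between 9338 and 9845 genes reached 1 TPM in a library. The T cell markers Cd3e, Cd3g, Cd3d and Cd4 summed to 553 to 1232 TPM. The sums of markers were 0 to 0.799 TPM for monocytes, 0.153 to 1.84 TPM for dendritic cells and at most 0.222 TPM for mast cells and basophils. B cell markers summed to 0.0825 to 5.12 TPM. The CD8 and NK markers summed to 4.02 to 31.8 TPM, nearly all from Cd8b1 and Klrd1, while Cd8a stayed at or below 0.557 TPM and Ncr1 was at 0 in 74 of 78 libraries. The library of well A4, labelled Th17n DMSO Div.1, was left out: all 9 genes lay outside the range of the other 4 libraries of that label there, with Gpr15 at 0 and Ccr8 at 19.4 TPM. Its Foxp3 was at 0.394 TPM, against 71.5 to 135.5 TPM under its label and 0.0385 to 0.766 TPM in Th17p DMSO Div.1 cells. Its Il22 was at 388 TPM, against 0.303 to 7.36 and 264 to 380 TPM. Among the members only Ccr6 and Itgb7 lay within the Th17p DMSO Div.1 range. The other wells with the letter A were labelled Th17p. Whether the label is right was not tested.

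Chemokine receptors are G protein-coupled receptors on the cell surface that sense gradients of chemokines and steer migrating leukocytes, while integrins such as those that contain the Itgb7 chain make migrating cells stick to the vessel wall or epithelium. Th17 cells are known for CCR6, the receptor of CCL20, which they use to enter inflamed and mucosal tissue. CCR4, the receptor of CCL17 and CCL22, and CCR8, the receptor of CCL1, are linked to type 2 and regulatory T cells and to skin. CXCR6 binds CXCL16 and CCR2 binds CCL2, both at inflamed sites. GPR15 directs T cells to the large intestine, CCR9, the receptor of CCL25, to the small intestine, and the integrin of Itga4 and Itgb7 binds MAdCAM-1 on gut vessels. CXCR4 binds CXCL12 and retains cells in bone marrow and lymphoid tissue.

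The 9 genes lie on 5 chromosomes of the mm10 (GRCm38) assembly, and 5 of them lie on chromosome 9. Ccr4 spans chr9:114490316-114504916 on the minus strand. On the plus strand lie Ccr8 at chr9:120092114-120094906, Ccr9 at chr9:123678439-123784330, Cxcr6 at chr9:123806475-123811760 and Ccr2 at chr9:124101950-124113557. Cxcr4 lies at chr1:128588199-128592293, Gpr15 at chr16:58717433-58719070 and Itgb7 at chr15:102215995-102231944, all on the minus strand, and Ccr6 at chr17:8236043-8257141 on the plus strand. The other chemokine receptor genes in the chromosome 9 region between Cxcr6 and Ccr2 were low, with highest values of 0.958 TPM for Xcr1, 0.552 TPM for Ccr1 and 2.94 TPM for Ccr3. Being neighbours therefore did not go with a shared level: Ccr9 and Cxcr6 lie side by side, and Ccr9 stayed at or below 0.403 TPM where Cxcr6 reached 13.9 TPM.

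Sequence shared with other genes limits the values of a few members. Of the 31-base words in the transcripts of Gpr15, 10.8% also occur in Cpox, a haem synthesis gene on the opposite strand whose exons overlap those of Gpr15 by 204 bases. Cpox was at 0.69 to 2.94 TPM in Th17p and 3.51 to 10.1 TPM in Th17n libraries, so a part of the low values of Gpr15 cannot be told apart from it. The shared portion was 21.7% for Ccr9, mostly with the overlapping AC165425.1, and 3.48% for Ccr2. It was 0% for Ccr8, Cxcr6 and Itgb7 and below 1% for Ccr4, Ccr6 and Cxcr4.

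The 250 bases upstream of a listed transcription start are shown for 4 members that differed between the cell types or responded to a compound, so that their starts can be compared. They come from the RefSeq promoter table (GRCm38.p6), in which all 9 members were found, and run 5′ to 3′ on the strand of the gene. Ccr6 has 2 starts there, and the one further upstream is shown. Capitals mark matches on either strand to motifs named for factors of T helper and gut-homing programmes or for receptors of steroids and stress signals. The motifs searched were AGGTCA (nuclear receptor half-site), TGANTCA (AP-1), TTCNNNGAA (STAT), GCGTG (core of the aryl hydrocarbon receptor site), TCACACC (T-box), CAGAC (SMAD), AGAACA (steroid receptor half-site) and TGANNNNGC (antioxidant response). The regions are chr17:8235793-8236042 (plus strand) for Ccr6, chr9:120091883-120092132 (plus) for Ccr8, chr9:123806227-123806476 (plus) for Cxcr6 and chr15:102231936-102232185 (minus) for Itgb7.
Ccr6: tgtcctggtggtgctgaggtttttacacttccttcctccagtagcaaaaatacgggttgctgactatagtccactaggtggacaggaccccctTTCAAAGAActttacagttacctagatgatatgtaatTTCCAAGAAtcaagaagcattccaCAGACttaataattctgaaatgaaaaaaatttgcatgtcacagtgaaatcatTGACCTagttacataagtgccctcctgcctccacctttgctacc
Ccr8: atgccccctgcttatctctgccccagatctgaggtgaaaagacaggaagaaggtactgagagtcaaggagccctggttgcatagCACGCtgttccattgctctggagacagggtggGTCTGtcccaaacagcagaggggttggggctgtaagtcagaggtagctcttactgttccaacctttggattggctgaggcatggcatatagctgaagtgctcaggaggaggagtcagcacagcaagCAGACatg
Cxcr6: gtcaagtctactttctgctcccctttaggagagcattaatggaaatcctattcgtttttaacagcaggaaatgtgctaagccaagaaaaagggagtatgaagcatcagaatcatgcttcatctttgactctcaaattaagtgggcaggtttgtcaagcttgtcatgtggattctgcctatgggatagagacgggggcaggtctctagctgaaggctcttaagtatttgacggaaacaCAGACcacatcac
Itgb7: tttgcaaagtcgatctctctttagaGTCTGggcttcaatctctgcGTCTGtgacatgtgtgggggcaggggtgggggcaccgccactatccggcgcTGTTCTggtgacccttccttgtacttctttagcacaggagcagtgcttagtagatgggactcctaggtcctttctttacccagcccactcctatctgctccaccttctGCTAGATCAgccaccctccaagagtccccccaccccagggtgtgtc

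The Ccr6 window held 2 STAT matches, 157 and 120 bases upstream of the start, beside a nuclear receptor half-site and a SMAD match. Among all 32851 promoters listed, 7.02% held a STAT match, 14% a nuclear receptor half-site and 42.2% a SMAD match. The Ccr8 window held 2 SMAD matches and 1 aryl hydrocarbon receptor core, which 28.2% of promoters held. The Cxcr6 window held a single SMAD match. The Itgb7 window held 2 SMAD matches, 1 steroid receptor half-site, found in 16.1% of promoters, and 1 antioxidant response match, found in 35.2%. The Gpr15 window held 1 AP-1 match (6.75% of promoters) and 1 SMAD match. It is not printed because an annotated transcript starts further upstream and most of the window lies inside the gene. The ends of the printed Ccr8, Cxcr6 and Itgb7 windows also reach into their annotated genes. The SMAD match of Ccr8 nearest its listed start lies in that part. None of these matches overlapped another. No T-box match (3.33% of promoters) lay in the windows of the members. These matches describe letters, and no binding was measured.

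Ccr8, Itgb7 and Ccr4 were above 1 TPM in all 78 libraries, with medians of 48.5, 73.4 and 26.7 TPM. Ccr6 reached 1 TPM in 65 libraries, Cxcr6 in 63 and Gpr15 in 39. Ccr2, Ccr9 and Cxcr4 stayed below 1 TPM in every library, so they did not pass the filter of 1 TPM in at least 4 libraries and are described apart. The 6 other members passed it, Gpr15 only through its Th17n libraries.

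**Figure D1:**
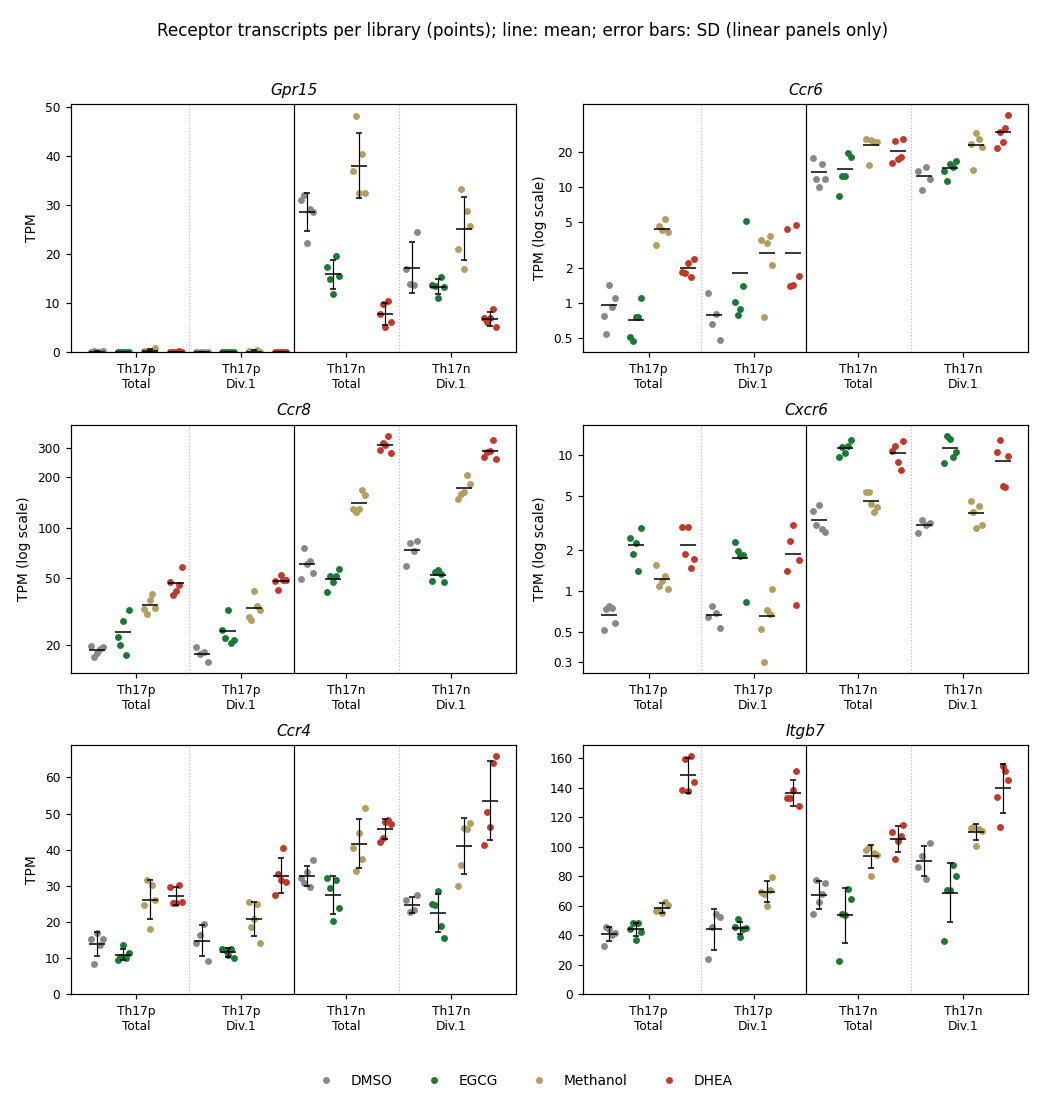
TPM of the 6 receptor genes that passed the filter in each of 78 libraries (points), by cell type and sort on the x axis and coloured by treatment. Horizontal lines are group means and error bars SD, drawn on the linear panels only. The Ccr6, Ccr8 and Cxcr6 panels have log axes. Gpr15 sits at or near 0 in every Th17p group and at 5.11 TPM or more in every Th17n library.

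The first comparison asked how the 2 cell types differ without a compound, over both solvents. The 5 members that passed the filter in both types, Ccr4, Ccr6, Ccr8, Cxcr6 and Itgb7, were all lower in Th17p, where 57.4% of all genes were called and 26.5% were called lower. Ccr6, the CCL20 receptor, was at a mean of 2.62 TPM in Th17p and 18.1 TPM in Th17n Total cells (log2 change -2.52, SE 0.17, adjusted p = 1.96e-21; changes are on the scale log2(TPM + 1), from limma with Benjamini-Hochberg adjustment over 10672 genes). Ccr8 was at 26.7 against 101 TPM (log2 change -1.81, SE 0.08, adjusted p = 3.47e-30), and Cxcr6 at 0.948 against 3.99 TPM (log2 change -1.35, SE 0.12, adjusted p = 2.23e-16). For these 3 genes the solvent libraries of the cell types did not overlap. Ccr4 at 20 against 37.2 TPM (log2 change -0.94, SE 0.11, adjusted p = 4.47e-11) and Itgb7 at 49.6 against 80.4 TPM (log2 change -0.69, SE 0.12, adjusted p = 7.67e-07) differed less, and their libraries overlapped.

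In Div.1 cells the log2 differences were -2.82 for Ccr6, -2.17 for Ccr8, -1.41 for Cxcr6, -0.87 for Itgb7 and -0.85 for Ccr4, each with an adjusted p of 9.01e-09 or less by the same limma fit. All 5 were again lower in Th17p, where 60.6% of all genes were called and 25.7% were called lower. In bulk RNA, fewer cells that express a gene and less RNA per cell cannot be told apart. The sum of the regulatory T cell markers Foxp3, Il2ra, Ikzf2 and Ctla4 differed by cell type. It was 277 to 332 TPM in Th17p and 486 to 542 TPM in Th17n DMSO Total cells. Over all libraries the medians were 273 TPM for Il2ra, 109 TPM for Ctla4 and 10.4 TPM for Foxp3, while Ikzf2 stayed at or below 1.09 TPM. The part of these markers in the difference was not tested.

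Gpr15, the large-intestine homing receptor, had the widest gap among the members. In Th17n DMSO Total cells the 5 libraries held 31, 32.1, 22.2, 29.3 and 28.6 TPM, and in Th17n methanol Total cells 36.9, 48.3, 32.5, 40.4 and 32.4 TPM. In Th17p DMSO Total cells they held 0, 0.292, 0, 0.149 and 0.376 TPM. Over all treatments Gpr15 was at 0 in 24 of 39 Th17p libraries and reached at most 0.872 TPM there, while the lowest Th17n library held 5.11 TPM. The filter admitted Gpr15 through its Th17n values alone, so a call between the types was built in, and its log2 difference of -4.79 is given as a description.

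The 3 members below 1 TPM were read from a fit without the filter. Ccr2, the CCL2 receptor, was at a mean of 0.418 TPM in Th17p and 0.0499 TPM in Th17n Div.1 cells of both solvents (log2 difference 0.42, adjusted p = 4.53e-07), the opposite direction to the other members. In Total cells the log2 difference was 0.17 (adjusted p = 0.0307). Cxcr4 was lower in Th17p, at 0.0693 against 0.243 TPM in Total cells (log2 difference -0.21, adjusted p = 0.0018). Ccr9 was at 0.0766 and 0.130 TPM and was not called (adjusted p = 0.28). In Th17p, Ccr2 was also higher in Div.1 than in Total cells (log2 difference 0.22, adjusted p = 0.0241) and lower with methanol than with DMSO (-0.24, adjusted p = 0.0169). All these levels are near the floor of the table, where the precision is unknown.

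EGCG was compared with DMSO in each cell type and sort. Cxcr6, the CXCL16 receptor, rose in all 4 comparisons, about 3.35-fold in Th17n Total cells. Ccr8 rose in Th17p cells and fell in Th17n Div.1 cells. Gpr15 fell in Th17n Total cells, and Ccr4 and Ccr6 were called in none of the comparisons. Of the 6 members tested, 2 were called in Th17p Total, both higher, where 44.9% of all genes were called and 30.1% were called higher. In Th17p Div.1 cells 2 were called higher as well, where 45.6% of all genes were called and 33.7% were called higher. Gpr15 is counted among the 6 in Th17p, although at or near 0 it could hardly be called there on the log2(TPM + 1) scale. In Th17n cells 3 of all 6 members were called in Total and 3 in Div.1, against 35.2% and 34.9% of all genes. With so few genes the members' shares are too coarse to be judged against these backgrounds.

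Across all genes, higher calls outnumbered lower ones with EGCG, and that split depended on the scaling. In Th17p Total cells 3208 genes were higher and 1586 lower, against 2506 and 2256 after each library was rescaled by its median ratio to the kept genes. In Th17n Total cells the numbers were 2319 and 1441, against 1908 and 1912. In Div.1 cells they were 3601 and 1270 against 2430 and 2241 for Th17p, and 2999 and 723 against 1642 and 1671 for Th17n. Rescaling moved the median of all genes by -0.103 and -0.112 in the Div.1 comparisons of Th17p and Th17n, and by less than 0.1 in the Total ones.

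Cxcr6 held 3.88, 3.06, 4.32, 2.85 and 2.71 TPM in the Th17n DMSO Total libraries and 9.74, 11.5, 10.5, 11.7 and 12.9 TPM in those with EGCG (11.3 ± 1.22 TPM, mean ± SD, n = 5). In Th17n Div.1 cells it held 2.69, 3.34, 3.05 and 3.16 TPM with DMSO and 8.84, 13.9, 13.3, 9.71 and 10.6 TPM with EGCG. Every EGCG library was above every DMSO library in both sorts. The log2 changes were 1.50 (95% interval 1.17 to 1.83, adjusted p = 4.19e-11) and 1.58 (95% interval 1.23 to 1.93, adjusted p = 3.55e-11) by limma. In Th17p Total cells the values went from 0.516, 0.730, 0.776, 0.746 and 0.576 TPM with DMSO to 2.47, 1.87, 2.27, 1.41 and 2.91 TPM with EGCG, again without overlap (log2 change 0.92, limma adjusted p = 4.92e-06). In Th17p Div.1 cells the means were 0.659 ± 0.1 TPM (n = 4) and 1.75 ± 0.551 TPM (n = 5; log2 change 0.71, SE 0.18, adjusted p = 0.000666, limma).

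The rise of Cxcr6 on the log2(TPM + 1) scale was smaller in Th17p than in Th17n cells by 0.87 in Div.1 cells (difference -0.87, limma adjusted p = 0.0081) and by 0.59 in Total cells (-0.59, adjusted p = 0.0694, not called). The Total difference was called with the compared groups alone (adjusted p = 0.0299) and without well column 1, at -0.75 (adjusted p = 0.0467). That scale understates the change of a gene near 1 TPM: the ratios of the means were 3.27 in Th17p and 3.35 in Th17n Total cells. With a pseudocount of 0.1 the Div.1 difference was -0.60 (adjusted p = 0.282).

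Ccr8, the CCL1 receptor, moved in opposite directions in the 2 cell types in Div.1 cells. In Th17p Div.1 cells it held 19.4, 17.7, 18 and 15.9 TPM with DMSO and 24.5, 22.2, 32.2, 20.7 and 21.3 TPM with EGCG (log2 change 0.41, SE 0.13, adjusted p = 0.00519, limma). In Th17n Div.1 cells it held 59.3, 81.3, 72.4 and 83.3 TPM with DMSO and 48.2, 54.6, 56.3, 53.2 and 47.5 TPM with EGCG (log2 change -0.50, SE 0.13, adjusted p = 0.00115). The EGCG libraries of Div.1 cells were all above the DMSO libraries in Th17p and all below them in Th17n. The response differed between the types by 0.90 in Div.1 cells (95% interval 0.55 to 1.26, limma adjusted p = 9.11e-05) and by 0.59 in Total cells (adjusted p = 0.0062). Of all genes 17.5% and 19.9% were called for such a difference. Of the 5 members that passed the filter in both types, Ccr8 and Cxcr6 were called in Div.1 and Ccr8 in Total cells. The Ccr8 value of well A4, 19.4 TPM, lay outside the 59.3 to 83.3 TPM of the other libraries of its label. With well A4 put back under that label the Ccr8 difference was no longer called, at 0.53 in Div.1 cells (adjusted p = 0.171). Nor was the Th17n Div.1 change, at -0.12 (adjusted p = 0.645). The same step, which widens the spread shared by all groups, gave adjusted p of 0.0654 in Th17p Div.1, 0.136 in Th17p Total and 0.087 for the difference in Total cells.

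In Total cells the log2 changes of Ccr8 had the same signs. Ccr8 held 19.7, 17, 17.9, 19 and 19.4 TPM in Th17p DMSO and 22.2, 19.9, 27.7, 17.5 and 32.4 TPM in Th17p EGCG libraries, which overlapped (log2 change 0.32, SE 0.12, adjusted p = 0.0221, limma). That call was lost on leaving out Th17p DMSO Total replicate 2, or Th17p EGCG Total replicate 3 or 5, with log2 changes from 0.21 to 0.42 over all libraries left out. It was also lost after rescaling (0.24, adjusted p = 0.08) and with the 2 groups fitted alone (adjusted p = 0.0838). In Th17n Total cells the means were 60.7 ± 10.1 and 49.7 ± 5.72 TPM (log2 change -0.28, SE 0.12, adjusted p = 0.0597, not called), and after rescaling the fall was called, at -0.32 (adjusted p = 0.0255).

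Gpr15 held 31, 32.1, 22.2, 29.3 and 28.6 TPM in Th17n DMSO Total cells and 17.4, 14.9, 11.9, 19.7 and 15.6 TPM with EGCG. Every EGCG library lay below every DMSO library (log2 change -0.82, 95% interval -1.12 to -0.52, limma adjusted p = 1.53e-05). In Th17n Div.1 cells it held 16.9, 13.9, 13.6 and 24.6 TPM with DMSO and 13.8, 13.5, 11, 15.3 and 13.2 TPM with EGCG, and the groups overlapped (log2 change -0.32, SE 0.16, adjusted p = 0.122, not called). After rescaling it was called there too, at -0.44 (adjusted p = 0.0334). The difference between the 2 sorts in this response was not called (log2 difference 0.50, limma adjusted p = 0.125). With a pseudocount of 0.1 the Th17n Total change was -0.85 with an adjusted p of 0.0694. All 10 Th17p EGCG libraries listed Gpr15 at 0, and with a pseudocount of 0.1 it was called lower with EGCG in Th17p Total cells, from values near the floor, at -1.11 (adjusted p = 0.0124). The difference between the types in the Total response, 0.61 (adjusted p = 0.0329), was -0.26 (adjusted p = 0.803) with a pseudocount of 0.1.

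Itgb7, the beta chain of the gut-homing integrin, held 54.1, 77.3, 62.3, 67.7 and 75.3 TPM in Th17n DMSO Total cells and 22.5, 54.4, 53.5, 71.4 and 64.7 TPM with EGCG (log2 change -0.42, SE 0.17, adjusted p = 0.0436, limma). In Div.1 cells it held 86.2, 93.7, 78.2 and 102 TPM and 35.6, 70.7, 70.5, 87.2 and 80.1 TPM (log2 change -0.44, SE 0.18, adjusted p = 0.0459). Both EGCG groups had 1 library far below the others, that of well column 1, at 22.5 and 35.6 TPM. Without well column 1 the log2 changes were -0.21 (adjusted p = 0.0737) and -0.24 (adjusted p = 0.0646). The Total call was also lost without Th17n DMSO Total replicate 2, 4 or 5, with log2 changes from -0.54 to -0.14 over all libraries left out. The Div.1 call was also lost without Th17n DMSO Div.1 replicate 1, 2 or 4 or Th17n EGCG Div.1 replicate 2 or 3, with log2 changes from -0.54 to -0.22. With the compared groups alone the adjusted p were 0.265 in Total and 0.161 in Div.1 cells, and without the filter 0.0779 and 0.0817. In Th17p cells Itgb7 was not called, at 40.8 ± 4.91 and 43.8 ± 4.64 TPM in Total cells (adjusted p = 0.66).

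Ccr4, the CCL17 and CCL22 receptor, had log2 changes with EGCG from -0.29 to -0.16 over the 4 comparisons, with adjusted p from 0.127 to 0.492. After rescaling it passed the threshold in both Th17p sorts, at -0.37 (adjusted p = 0.0482) and -0.40 (adjusted p = 0.0426). Ccr6 held 1.22, 0.654, 0.798 and 0.483 TPM in Th17p DMSO Div.1 cells and 1.03, 0.792, 0.890, 1.39 and 5.03 TPM with EGCG, where 1 library stood apart (log2 change 0.50, SE 0.25, adjusted p = 0.1, not called). It was called at 0.82 (adjusted p = 0.0437) with a pseudocount of 0.1 and at 0.69 (adjusted p = 0.0494) without well column 1. Ccr2 in the same cells held 0.821, 0.649, 0.403 and 0.373 TPM with DMSO and 0.186, 0.107, 0.140, 0.0734 and 0.0780 TPM with EGCG. Those libraries did not overlap, and Ccr2 was called lower in the fit without the filter (log2 change -0.47, adjusted p = 7.21e-05). Its response differed from that in Th17n Div.1 cells by -0.58 (adjusted p = 0.00206).

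**Figure D2:**
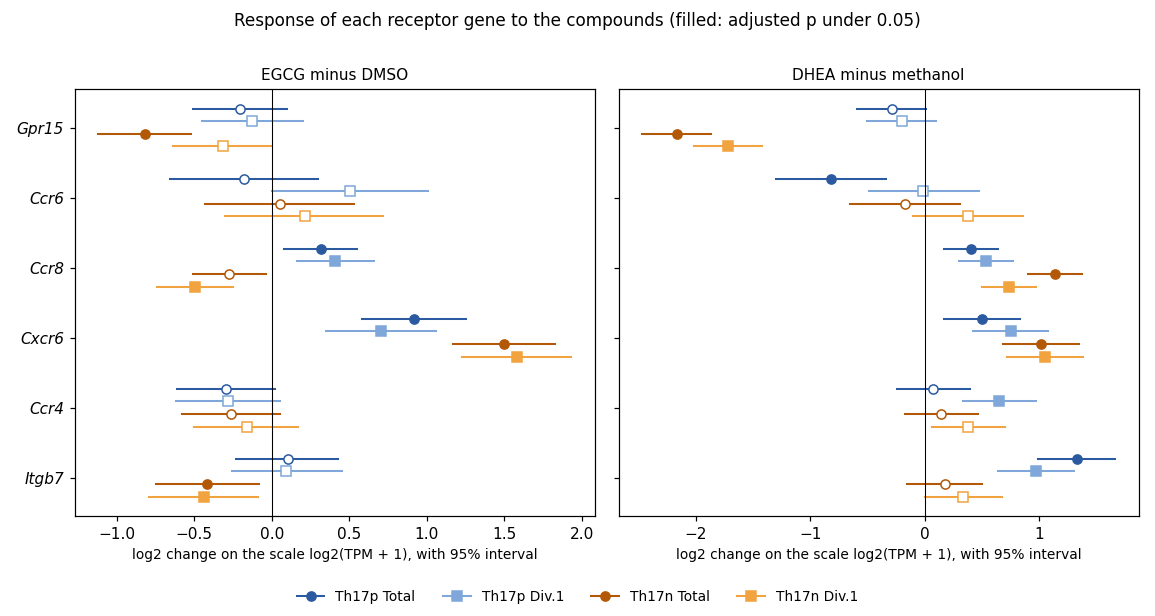
Log2 change of each receptor gene with EGCG against DMSO (left) and with DHEA against methanol (right), on the scale log2(TPM + 1), with 95% intervals from limma. Colours and shapes give the cell type and sort, and filled symbols have an adjusted p under 0.05. Cxcr6 lies to the right of 0 in all 8 comparisons, Gpr15 in Th17n reaches -2.17 with DHEA, and Itgb7 reaches 1.33 in Th17p Total cells with DHEA.

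DHEA was compared with methanol in the same way. Ccr8 and Cxcr6 rose in all 4 comparisons. Gpr15 fell in Th17n cells, to a mean 4.85 times lower in Total cells, and Itgb7 rose in Th17p cells, 2.54-fold in Total. Ccr4 rose in Th17p Div.1 cells and Ccr6 fell in Th17p Total cells. Of the 5 members that passed the filter in both types, 4 were called in Th17p Total and 4 in Th17p Div.1 cells, against 47.7% and 37.3% of all genes tested. In Th17n cells 3 of all 6 members, Gpr15 among them, were called in Total and 3 in Div.1, against 46.1% and 36.6%. For a difference between the types in the DHEA response, 2 of the 5 members that passed the filter in both types, Ccr8 and Itgb7, were called in Total cells, against 14.8% of all genes. In Div.1 cells 0 of the 5 were called by limma and 1, Itgb7, had an unadjusted p under 0.05, against 15.9% of all genes called. With so few genes these shares are coarse. Gpr15 is left out of the DHEA counts in Th17p and of those for a difference between the types, since it passed the filter through Th17n alone.

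Ccr8 held 129, 125, 129, 168 and 156 TPM in Th17n methanol Total cells and 289, 319, 311, 353 and 280.3 TPM with DHEA. Its Div.1 values were 148, 159, 163, 205 and 183 TPM with methanol and 265, 285, 288, 335 and 257 TPM with DHEA. All DHEA libraries lay above all methanol libraries in both sorts, and these were the highest levels of any member in any group. The log2 changes were 1.14 (95% interval 0.90 to 1.37, limma adjusted p = 9.27e-13) and 0.74 (95% interval 0.50 to 0.97, adjusted p = 6.2e-07). In Th17p cells Ccr8 went from 34.8 ± 3.67 to 46.6 ± 7.24 TPM in Total (log2 change 0.40, SE 0.12, adjusted p = 0.00307) and from 33.1 ± 5.43 to 48.1 ± 3.42 TPM in Div.1 cells (log2 change 0.54, SE 0.12, adjusted p = 0.000175), each n = 5 and by limma. The rise was smaller in Th17p than in Th17n Total cells (difference -0.73, limma adjusted p = 0.00085), and the Div.1 difference of -0.20 was not called (adjusted p = 0.459). With well A4 put back under its own label the Th17p Total rise had an adjusted p of 0.0506.

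Gpr15 held 36.9, 48.3, 32.5, 40.4 and 32.4 TPM in Th17n methanol Total cells and 7.75, 9.78, 5.11, 10.5 and 6.10 TPM with DHEA. In Div.1 cells it held 21, 33.3, 16.9, 28.9 and 25.8 TPM with methanol and 7.03, 6.20, 6.95, 8.92 and 5.13 TPM with DHEA. The groups were far apart in both sorts, and the means were 4.85 and 3.68 times lower with DHEA. The log2 changes were -2.17 (95% interval -2.47 to -1.87, limma adjusted p = 1.66e-19) and -1.72 (95% interval -2.02 to -1.42, adjusted p = 9.02e-15). Gpr15 and Ccr8 thus moved in opposite directions in the same 10 Th17n DHEA libraries. In Th17p cells 8 of the 10 DHEA libraries listed Gpr15 at 0, and the 10 methanol libraries held at most 0.872 TPM in Total and 0.498 TPM in Div.1 cells. Gpr15 was not called in Th17p on the log2(TPM + 1) scale. With a pseudocount of 0.1 it was called lower with DHEA there, at -1.20 (adjusted p = 0.00586) in Total and -0.95 (adjusted p = 0.0381) in Div.1 cells, from levels near the floor of the table. The difference between the types, 1.88 in Total and 1.51 in Div.1 cells (limma adjusted p = 4.9e-10 and 4.61e-07), was 1.10 and 0.89 with a pseudocount of 0.1 and was then not called (adjusted p = 0.175 and 0.273).

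Itgb7 held 56.5, 57.3, 55, 62.7 and 60.7 TPM in Th17p methanol Total cells and 138, 159.6, 138, 162 and 144 TPM with DHEA. In Div.1 cells it held 69.4, 67.8, 60, 70.6 and 79.4 TPM with methanol and 133, 133, 138, 151 and 128 TPM with DHEA. No libraries overlapped, and the log2 changes were 1.33 (95% interval 0.99 to 1.66, limma adjusted p = 4.77e-10) and 0.97 (95% interval 0.64 to 1.30, adjusted p = 2.67e-06). In Th17n Total cells Itgb7 was at 93.4 ± 7.84 and 105 ± 8.76 TPM (log2 change 0.17, SE 0.17, adjusted p = 0.426, not called). In Th17n Div.1 cells it was at 109.8 ± 5.26 and 139 ± 16.7 TPM (log2 change 0.33, SE 0.17, adjusted p = 0.112, not called). The response was larger in Th17p than in Th17n Total cells (difference 1.15, limma adjusted p = 0.000212), and the Div.1 difference of 0.64 depended on the setting. It was not called with all groups in 1 fit (adjusted p = 0.054), and it was called with the compared groups alone (adjusted p = 0.000433), without well column 1 (adjusted p = 4.95e-05) and after rescaling, at 0.68 (adjusted p = 0.0366). The Th17n Div.1 change of Itgb7 likewise was called with its groups alone (adjusted p = 0.00873) and without well column 1 (adjusted p = 0.00106). Over the solvents Itgb7 was lower in Th17p than in Th17n cells. With DHEA the Th17p Total level of 148 ± 11.6 TPM was above the Th17n Total level of 105 ± 8.76 TPM with no overlap of libraries, a comparison for which no test was made.

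Cxcr6 held 5.34, 5.40, 4.35, 3.81 and 4.17 TPM in Th17n methanol Total cells and 10.8, 11.7, 8.94, 7.86 and 12.8 TPM with DHEA. Its Div.1 values were 4.64, 3.82, 2.92, 4.23 and 3.05 TPM with methanol and 10.7, 13.1, 5.98, 5.86 and 9.84 TPM with DHEA. All DHEA libraries were above all methanol libraries in both sorts, with log2 changes of 1.02 (limma adjusted p = 5.03e-07) and 1.05 (adjusted p = 5.31e-07). In Th17p cells it went from 1.23 ± 0.212 to 2.20 ± 0.716 TPM in Total (log2 change 0.50, SE 0.17, adjusted p = 0.00989) and from 0.652 ± 0.273 to 1.86 ± 0.879 TPM in Div.1 cells (log2 change 0.75, SE 0.17, adjusted p = 0.000195), n = 5 each by limma, and the libraries overlapped. Cxcr6 was the member that rose with both compounds in both cell types and both sorts. Neither difference between the cell types in its response to DHEA was called (adjusted p = 0.139 in Total and 0.434 in Div.1 cells).

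Ccr4 held 25.5, 18.6, 20.9, 24.8 and 14.2 TPM in Th17p methanol Div.1 cells and 27.5, 33.4, 31.7, 40.6 and 31 TPM with DHEA, without overlap (log2 change 0.65, SE 0.16, adjusted p = 0.000727, limma). In Th17n Div.1 cells the log2 change was 0.38 (adjusted p = 0.0539, not called). In Total cells it was 0.08 for Th17p and 0.14 for Th17n, neither called. The Ccr4 response did not pass the test for a difference between sorts (adjusted p = 0.0933 in Th17p). Ccr6 held 3.18, 4.62, 4.27, 5.28 and 4.09 TPM in Th17p methanol Total cells and 1.84, 1.81, 2.21, 1.68 and 2.40 TPM with DHEA, without overlap (log2 change -0.82, SE 0.24, adjusted p = 0.00336, limma). In Th17p Div.1 cells Ccr6 was at 2.67 ± 1.23 and 2.70 ± 1.63 TPM, and it was not called there or in Th17n cells (adjusted p = 0.977, 0.599 and 0.22).

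Cxcr4, the CXCL12 receptor, stayed below 1 TPM but was higher with DHEA in Th17n cells. It held 0, 0.351, 0.0982, 0.245 and 0.221 TPM in methanol and 0.906, 0.963, 0.715, 0.670 and 0.765 TPM in DHEA Total cells, without overlap. In the fit without the filter its log2 change was 0.61 (adjusted p = 3.15e-09) in Total and 0.40 (adjusted p = 9.11e-05) in Div.1 cells. In Th17p Total cells Cxcr4 was at 0.0402 and 0.125 TPM and was not called (adjusted p = 0.379). The Total response was smaller in Th17p than in Th17n (difference -0.50, adjusted p = 0.00139). Ccr9, the small-intestine receptor, was at 0.149 and 0.280 TPM in Th17n Total cells and just passed in the same fit (log2 change 0.16, adjusted p = 0.0488), though its sequence overlaps other genes. Ccr2 was not called with DHEA.

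**Figure D3:**
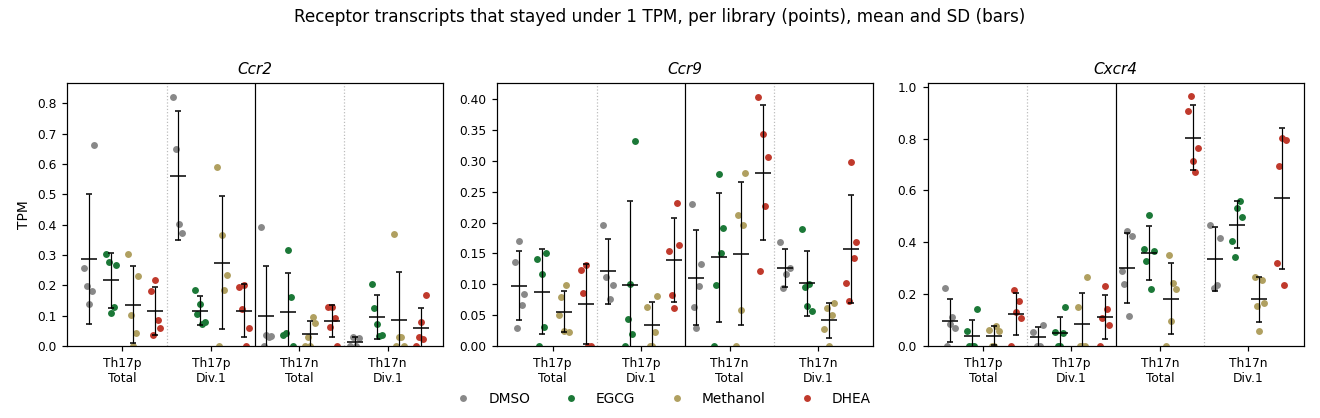
TPM of Ccr2, Ccr9 and Cxcr4 in each of 78 libraries (points), by cell type and sort on the x axis and coloured by treatment, with group means and SD. All values are below 1 TPM, Ccr2 is highest in Th17p DMSO Div.1 cells at a mean of 0.561 TPM, and Cxcr4 is highest in Th17n DHEA Total cells at 0.804 TPM.

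Marker genes are set beside these changes. Il17f, which encodes the Th17 cytokine IL-17F, was at 1239 to 1820 TPM in Th17p methanol and 96.7 to 263 TPM in Th17p DHEA Total cells, and at 4104 to 5390 and 692 to 1341 TPM in Th17n. The sum of the 6 CD8 and NK markers was 7.48 to 10.7 TPM in Th17p methanol and 17.1 to 24.4 TPM in Th17p DHEA Total cells, and 16.9 to 24.5 and 23.9 to 29.9 TPM in Th17n. With 4 of the 6 below 1 TPM in every library, that sum came from Cd8b1 and Klrd1. With EGCG the Il17f values were 1848 to 2670 TPM in Th17p DMSO and 113 to 363 TPM in Th17p EGCG Total cells, and 6096 to 7461 and 5681 to 7125 TPM in Th17n. The 4 T cell markers summed to 743 to 761 TPM with DMSO and 1085 to 1185 TPM with EGCG in Th17p Total cells, and to 779 to 822 TPM with methanol and 1180.0 to 1232 TPM with DHEA. In Th17n Total cells these sums were 553 to 575 and 713 to 822 TPM for EGCG, and 554 to 594 and 859.6 to 977 TPM for DHEA. So the T cell sum was higher with each compound than with its solvent in both types, with no overlap of libraries. The B cell markers summed to 0.166 to 0.720 TPM with methanol and 0.990 to 2.41 TPM with DHEA in Th17p Total cells, and to 0.795 to 1.54 and 1.88 to 5.12 TPM in Th17n. These B cell sums did not overlap either, and Ms4a1 and Pax5 were below 1 TPM in every library. With EGCG the B cell sums overlapped those with DMSO in both types. The part of these markers in the receptor changes was not tested.

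The solvents themselves were compared, since the levels from which each compound started differed. In Th17p cells 4 of the 5 members that passed the filter in both types were higher with methanol than with DMSO. Of all genes 13.6% were called there and 8.44% were called higher. In Th17n cells 5 of 6, with Gpr15 included, were higher, where 14.4% were called and 10.1% were called higher. Ccr8 was at 67.4 TPM with DMSO and 157 TPM with methanol in Th17n (log2 change 1.21, SE 0.09, adjusted p = 5.02e-18), and at 18.2 and 34 TPM in Th17p (log2 change 0.86, SE 0.09, adjusted p = 3.98e-12), over both sorts and by limma. Ccr6 was at 0.870 and 3.48 TPM in Th17p (log2 change 1.20, SE 0.18, adjusted p = 3.11e-07) and Ccr4 at 14.3 and 23.5 TPM (log2 change 0.68, SE 0.12, adjusted p = 9.92e-06). Itgb7 differed by 0.61 in Th17p and 0.38 in Th17n cells. Gpr15 differed by 0.46 in Th17n cells, and Cxcr6 was called in neither type (adjusted p = 0.306 and 0.102). With the compared groups alone Cxcr6 was called in Th17n (adjusted p = 0.0447), and with a pseudocount of 0.1 the Gpr15 difference was not called, at 0.47 (adjusted p = 0.268). The call of Itgb7 in Th17n was lost without Th17n DMSO Div.1 replicate 3 or Th17n DMSO Total replicate 1, with log2 differences from 0.34 to 0.41 over all libraries left out. Solvent and well columns cannot be told apart.

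The methanol difference of Ccr8 in Th17n, 1.21, stood beside a change of 1.14 with DHEA against methanol in Total cells. For Gpr15 the directions were opposite, 0.46 with methanol and -2.17 with DHEA. These comparisons share the methanol libraries, so their values are set side by side only.

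Cells sorted after 1 division were also set against unsorted cells of both solvents. In Th17p none of the 6 members that passed the filter was called by limma (adjusted p under 0.05), against 19.4% of all genes. Of these members Gpr15, at or near 0 in Th17p, could hardly be called. Only Ccr6 had an unadjusted p under 0.05 (log2 difference -0.36, adjusted p = 0.14). Itgb7 was called there without well column 1, at 0.24 (adjusted p = 0.00622), and Cxcr6 with the compared groups fitted alone, at -0.23 (adjusted p = 0.0449). Itgb7 was also called with a block of well column within cell type and treatment, at 0.14 (adjusted p = 0.046). In Th17n 3 of 6, with Gpr15 included, were called, against 21.9%. Gpr15 was at 33.4 TPM in Total and 21.2 TPM in Div.1 cells (log2 change -0.66, SE 0.11, adjusted p = 4.6e-06), Ccr8 at 101 and 123 TPM (log2 change 0.28, SE 0.09, adjusted p = 0.0105) and Itgb7 at 80.4 and 100 TPM (log2 change 0.33, SE 0.12, adjusted p = 0.0428). Libraries overlapped for all 3 genes, and the Itgb7 call was lost on leaving out any of 11 of the 19 libraries, with log2 differences from 0.29 to 0.36. With a pseudocount of 0.1 the Gpr15 difference was -0.69 (adjusted p = 0.061), no longer called.

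The response to a compound was also compared between the sorts. Of the 6 members that passed the filter none was called in any of the 4 comparisons by limma, with the sorts taken as unpaired. Gpr15, at or near 0 in Th17p, could hardly be called there. Itgb7 was called for DHEA in Th17p when the compared groups were fitted alone (log2 difference -0.36, adjusted p = 0.0214) and without well column 1 (adjusted p = 0.0388). The shares of all genes called were 2.57% and 13.3% for EGCG in Th17p and Th17n, and 9.91% and 6.79% for DHEA. At an unadjusted p under 0.05 there were 0 members with EGCG in Th17p, 1 in Th17n (Gpr15), 2 with DHEA in Th17p (Ccr4 and Ccr6) and 2 in Th17n (Ccr8 and Gpr15). Missing the threshold does not show that the responses were alike in the sorts. The Ccr8 difference in Th17n with DHEA, for example, had a 95% interval of -0.73 to -0.07. In every well column Ccr8 in Th17n was higher in Div.1 than in Total cells with methanol and lower with DHEA. With a block of well column within cell type and treatment, added after seeing the data, that difference was called by limma (-0.40, adjusted p = 0.0125). The block also called the Itgb7 difference for DHEA in Th17p (-0.36, adjusted p = 0.00991).

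The share of each gene in the summed TPM of the 9 changed with the group. The sum was 75.5 ± 4.93 TPM in Th17p DMSO, 126 ± 9.27 in Th17p methanol, 207 ± 16.3 in Th17n DMSO and 342 ± 23.2 TPM in Th17n methanol Total cells (mean ± SD, n = 5). With DHEA it was 227 ± 11.6 TPM in Th17p and 501 ± 26.3 TPM in Th17n Total cells. Itgb7 made up 65.4% ± 3.21 of the sum in Th17p DHEA Total cells, and Ccr8 61.9% ± 2.89 in Th17n DHEA Total cells. Gpr15 made up 13.9% ± 1.75 in Th17n DMSO Total cells and 1.56% ± 0.408 with DHEA. Cxcr6 made up 1.65% ± 0.450 with DMSO and 6.61% ± 0.608 with EGCG in the same cells. With methanol alone Itgb7 also led in Th17p, at 46.6% ± 1.35, and Ccr8 in Th17n Total cells, at 41.1% ± 3.12.

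**Figure D4:**
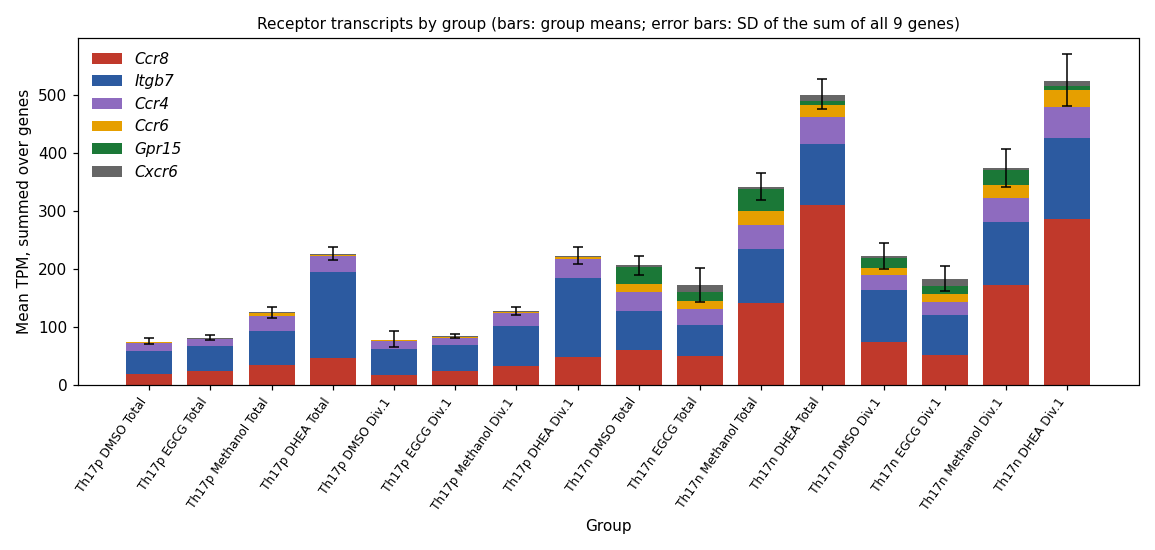
Mean TPM of the receptor genes stacked by group (n = 5, or 4 in the DMSO Div.1 groups), with error bars for the SD of the summed TPM of all 9 genes. The y axis starts at 0. The sum ran from 75.5 ± 4.93 TPM in Th17p DMSO Total to 525 ± 44.7 TPM in Th17n DHEA Div.1 cells, with Ccr8 and Itgb7 as the broadest bands.

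Ordered by group mean, most neighbouring groups overlapped. For Ccr8 the Th17n DHEA groups led and were separated from Th17n methanol Div.1 cells, and Th17n methanol Total cells were separated from Th17n DMSO Div.1 cells. For Cxcr6 a gap without overlap lay between Th17n DHEA Div.1 and Th17n methanol Total cells, and another below Th17p methanol Total cells. For Gpr15 gaps lay below Th17n methanol Total, below Th17n EGCG Div.1 and below Th17n DHEA Div.1 cells. For Itgb7 the gap was below Th17p DHEA Div.1 cells, the third in its order, and for Ccr6 it lay between the lowest Th17n and the highest Th17p group. Ccr4, Ccr2, Ccr9 and Cxcr4 had no such gap between neighbours, so their order is a matter of overlapping ranges.

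The members did not vary as 1 block across the 16 group means on the log2(TPM + 1) scale. Pearson's r was 0.90 for Ccr4 with Ccr8, and 0.88 and 0.91 within the 8 Th17p and the 8 Th17n groups. It was 0.93 and 0.89 within the cell types for Ccr8 with Itgb7. Cxcr6 with Gpr15 had 0.72 over all groups but -0.68 within the Th17n groups, and the Th17p values of Gpr15 are too near 0 to give one. Within the types every pair of Ccr4, Ccr8 and Itgb7 had an r of 0.78 or more. These are descriptions over group means that share libraries, cell type and solvent.

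The genes most like each member were those with the highest r over the 16 group means, among 10671 genes with predicted ones passed over. Predicted genes were those named Gm and digits, starting with LOC or ending in Rik. For Ccr8 they were Grb7 (r = 0.983), Fgd3 (0.976) and Cxcr5 (0.973), the last a receptor of the follicular chemokine CXCL13. For Gpr15 they were Gcnt2 (0.994), Tmem176b (0.986) and Cd38 (0.985). Ccr6 was most like Tex264 (0.990), Slc43a3 (0.986) and the cytokine gene Lta (0.980), and Itgb7 was most like Rrad (0.979), Rftn1 (0.963) and Tbc1d10a (0.944). The values were lower for Cxcr6, with Gprc5a (0.961), Usp38 (0.954) and Arhgap24 (0.945), and for Ccr4, with Ndst1 (0.943), Ubash3a (0.943) and Agpat3 (0.938). The means share the difference between the cell types, which enters every r.

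Chemokine receptor genes outside the 9 differed in both directions between the cell types. Among the 16 listed, 8 passed the filter, and in Total cells 4 were higher and 3 lower in Th17p, with a median log2 difference of 0.33 against 0.02 for all genes. In that comparison 57.4% of all genes were called. Cxcr3, the type 1 helper cell receptor, was at 43.2 TPM in Th17p and 7.26 TPM in Th17n cells (log2 difference 2.47, limma adjusted p = 2.19e-32). Cxcr5 (-2.50) and Ccr7, the lymph node receptor (-0.93), were lower in Th17p. Cxcr3 and Ccr6 therefore went in opposite directions between the types.

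Ccr7 rose with DHEA in all 4 comparisons. Ccr7 went from 448 to 1124 TPM in Th17n Total cells (log2 change 1.33, limma adjusted p = 1.91e-21) and from 247 to 780.3 TPM in Th17p (1.66). S1pr1, a receptor for lymph node exit, rose in Th17n cells (1.05 in Total) and was not called in Th17p (0.09). The adhesion and homing genes outside the 9 had 12 of 21 higher and 3 lower with DHEA in Th17p Total cells and 12 higher and 1 lower in Th17n Total cells, with medians of 0.48 and 0.37 against -0.02 and -0.01 for all genes. Higher calls made up 20.9% and 20.8% of all genes. Among these, Itgb2, a leukocyte integrin chain, and Selplg, a selectin ligand, rose in both types.

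Itga4, the alpha chain that pairs with Itgb7, did not follow it in every comparison. It was higher in Th17p than in Th17n Total cells (log2 difference 0.58, limma adjusted p = 1.16e-10), where Itgb7 was lower. With DHEA it rose in Th17p Total (0.52), Th17n Total (0.45) and Th17n Div.1 cells (0.33), while the Th17p Div.1 change of 0.24 was not called. The change of Itgb7 with DHEA in Th17p Total cells was 1.33 on the same scale. Itga4 was called in no EGCG comparison.

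Among 16 listed ligand genes of the members, 6 passed the filter. In the comparison of the cell types in Total cells 2 were higher and 2 lower in Th17p, where 57.4% of all genes were called. Ccl20, the ligand of CCR6, was at 1.97 TPM in Th17p and 162 TPM in Th17n Total cells (log2 difference -5.91, limma adjusted p = 4.18e-33), so ligand and receptor were both lower in Th17p. With EGCG Ccl20 rose in Th17n Div.1 cells from 59.5 to 365 TPM (2.70), where Ccr6 was not called. Ccl1, the ligand of CCR8, rose with EGCG in Th17p Total cells from 1.44 to 7.80 TPM (2.31, limma adjusted p = 2.03e-05). Ccr8 was called higher with EGCG in that comparison and in Th17p Div.1 cells. Cxcl16, the ligand of CXCR6, was low and rose with EGCG in Th17p Total cells from 0.294 to 0.959 TPM (0.59).

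Of 26 genes for the signalling of these receptors all were tested. Lower calls in Th17p reached 18 in Total cells, with 4 higher, against 26.5% of all genes lower. With EGCG in Th17p Total cells 13 were higher and 3 lower, against 30.1% of all genes higher, a share that depended on the scaling. Rgs1, which limits chemokine receptor signalling, went from 122 to 464 TPM there (log2 change 1.92, limma adjusted p = 1.69e-31), and Rgs16 from 57.3 to 165 TPM (1.52). With DHEA Dock2, which links chemokine receptors to Rac, rose in both types (0.63 in Th17p and 0.58 in Th17n Total cells). The list's medians with DHEA were 0.25 and 0.05 in Th17p and Th17n Total cells.

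Of 21 transcription factor genes linked to homing 19 were tested. In Th17p Total cells 7 were higher and 8 lower than in Th17n, where 57.4% of all genes were called. Ahr, the aryl hydrocarbon receptor, was at 1.20 against 19.6 TPM (log2 difference -3.23, limma adjusted p = 1.71e-46), and Foxo1 (-1.63) and the retinoic acid receptor gene Rara (-1.95) were lower too. With DHEA 10 were higher and 2 lower in each type in Total cells, against 20.9% and 20.8% of all genes higher. Gata3, the type 2 helper cell factor, rose from 4.20 to 18.5 TPM in Th17p (1.94) and from 0.884 to 5.29 TPM in Th17n (1.70). Klf2, which drives S1pr1, rose in Th17n Total cells from 1.04 to 5.94 TPM (1.76, adjusted p = 1.93e-10). Gata3 also rose with EGCG, by 1.36 in Th17p and 1.23 in Th17n Total cells.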

How the data were processed

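Libraries were made from polyadenylated RNA. Per the submitters' processing notes, Trimmomatic and kallisto were used with the mm10 build, with no versions or settings given in the sources used here. The authors deposited 1 table in TPM with 1 value per gene symbol and library, and the step from transcripts to symbols is not given in those sources. Columns summed to 880077 to 895017 TPM. TPM keep no read counts, so depth was unknown and no counting interval was possible. Groups came from the library titles. Replicate numbers are the well columns. The fit took libraries as unpaired, although libraries of the same column were weakly alike. No library pair within a group was identical (152 pairs, r 0.976 to 0.993). The design text speaks of 5 mice per condition but ties no library to a mouse, so p-values measure the spread between these libraries.

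Of 20465 genes, 10672 with at least 1 TPM in at least 4 of 78 libraries were kept. A model with 16 group means was fitted to log2(TPM + 1) in limma 3.58.1 (R 4.3.3) with a trend and moderated two-sided tests. The p-values were adjusted by Benjamini-Hochberg over genes within each of 22 comparisons, with calls at an adjusted p under 0.05. Fold changes of low genes are understated on this scale. Genes under the filter were read from the same fit without it. The procedure was tested on simulated data. Alternatives were a pseudocount of 0.1, no filter, rescaling by the median ratio, the compared groups alone, a replicate block, well A4 put back under its own label, and leaving out each library. A fit without well column 1, and for the sorts a block of well column within cell type and treatment, were added after seeing the data. The members, lists and motifs were chosen with earlier results of these data known. Named genes were all members, the 3 genes most like each member, up to 4 genes of each list with the smallest p, and Ccl20, Ccr7, Cxcr3, S1pr1 and Itga4, and some genes that the rule names are not reported here. Positions came from a GRCm38 annotation. Ranked lists, shared sequence and figures were computed with Python 3.11.15, pandas 2.3.3, numpy 2.4.6 and matplotlib 3.10.9.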

Additional observations from a re-analysis of the deposited data

Results flagged for a closer look

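Responses that differed between the cell types by limma are set out first, as the log2 response in Th17p minus that in Th17n. With EGCG the difference was 0.594 for Ccr8 and 0.611 for Gpr15 in Total cells, and 0.904 for Ccr8 and -0.874 for Cxcr6 in Div.1 cells. With DHEA it was -0.733 for Ccr8, 1.88 for Gpr15 and 1.15 for Itgb7 in Total cells, and 1.51 for Gpr15 in Div.1 cells. Gpr15 was at or near 0 in Th17p and passed the filter through Th17n alone. With a pseudocount of 0.1 none of its differences was called, and it was then called lower in Th17p itself, at -1.11 with EGCG in Total cells (adjusted p = 0.0124), and with DHEA at -1.20 (adjusted p = 0.00586) in Total and -0.95 (adjusted p = 0.0381) in Div.1 cells. The EGCG difference of Gpr15 in Total cells was also lost on leaving out any of 5 libraries (Th17p DMSO Total replicates 1 and 3, Th17n DMSO Total replicates 1 and 2, and Th17n EGCG Total replicate 3), with values from 0.52 to 0.70 over all libraries left out.

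Single libraries stood apart from the rest of their group by Dixon's test in 7 of 141 tests of a gene in a group, and chance flags about 1 in 20. Ccr2 was high at 0.393 TPM in Th17n DMSO Total replicate 1, 0.368 TPM in Th17n methanol Div.1 replicate 6 and 0.662 TPM in Th17p DMSO Total replicate 5. Ccr6 was low at 15.3 TPM in Th17n methanol Total replicate 7 and high at 5.03 TPM in Th17p EGCG Div.1 replicate 5. Itgb7 was low at 101 TPM in Th17n methanol Div.1 replicate 8 and at 79.9 TPM in Th17n methanol Total replicate 8, 2 libraries of the same well column.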

How the results depend on the processing

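Over 948 gene results under other settings 885 kept their direction and their side of the threshold, 28 lost the call, 34 gained one and 1 reversed. Leaving out single libraries left 2039 of 2088 gene results as they were, with 31 calls lost, 18 gained and 0 reversed. The reversal was the Gpr15 difference between cell types in the EGCG response of Total cells, at -0.26 (adjusted p = 0.803) with a pseudocount of 0.1. Calls gained on leaving out 1 library were Ccr4 with DHEA in Th17n Div.1 (log2 change 0.27 to 0.47; methanol replicate 8, 9 or 10, DHEA replicate 6 or 8), Ccr8 with EGCG in Th17n Total (-0.34 to -0.19; DMSO replicate 1 or 5, EGCG replicate 5), Ccr4 with EGCG in Th17p (Total DMSO replicate 2, Div.1 DMSO replicate 5) and Gpr15 with DHEA in Th17p Total (methanol replicate 7). Differences of responses that gained a call this way were Cxcr6 for EGCG between types in Total (Th17p EGCG replicate 5 or Th17n DMSO replicate 3), Itgb7 for DHEA between types in Div.1 (Th17p methanol replicate 10 or Th17n DHEA replicate 8) and for EGCG in Total (Th17n EGCG replicate 4), Ccr4 for DHEA between sorts in Th17p (methanol Total replicate 8) and Gpr15 for EGCG between sorts in Th17n (DMSO Div.1 replicate 4). The Itgb7 call between the sorts in Th17n was lost without Div.1 DMSO replicate 1, 2 or 4, Div.1 methanol replicate 6, 7 or 9, Total DMSO replicate 1, 3 or 4, or Total methanol replicate 8 or 10. Depth is unknown in TPM, so the precision of the low genes could not be set.

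The numbers of members called, out of those tested and with Gpr15 included, are listed here where they moved much in proportion to the count. With well A4 put back under its own label they went from 2 to 1 for EGCG in Th17p Total and Div.1, from 2 to 0 for the EGCG difference between types in Total and from 2 to 1 in Div.1, from 0 to 1 for the EGCG difference between sorts in Th17n, and from 3 to 1 between the sorts in Th17n. With a pseudocount of 0.1 they went from 2 to 1 for the EGCG differences between types in both sorts and from 1 to 0 for the DHEA difference in Div.1. Without the filter they were 5 for DHEA in Th17n Total, 1 for the EGCG difference between types in Total, 2 for the DHEA difference in Div.1 and 1 between the sorts in Th17p. In the groups compared alone they were 1 for EGCG in Th17p Total, 2 for the DHEA difference between types in Div.1, 1 for the DHEA difference between sorts in Th17p and 1 between the sorts in Th17p. Without well column 1 the last 3 were 2, 1 and 1. Rescaling gave 2 for the DHEA difference between types in Div.1. Leaving out single libraries gave 1 to 2 for EGCG in Th17p Total, 1 to 3 for the EGCG difference between types in Total, 1 to 2 for the DHEA difference in Div.1, 0 to 1 for the DHEA difference between sorts in Th17p and 0 to 1 for the EGCG one in Th17n. Smaller moves are not listed as counts. Among them, rescaling gained a call for EGCG of Ccr4 in Th17p Div.1, Ccr8 in Th17n Total and Gpr15 in Th17n Div.1. The groups compared alone gained Ccr6 for the DHEA difference between types in Total (-0.65, limma adjusted p = 0.0415). With well A4 put back Ccr8 lost its call for DHEA in Th17p Total (adjusted p = 0.0506). The cause of these moves was not tested.

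Libraries of the same well column were weakly alike. Deviations from the group means correlated by over 0.1 in 86 of 266 same-column pairs (median 0.07, range -0.04 to 0.32). The median was -0.01 between libraries of other columns. With well column as a replicate block 5 members were called for DHEA in Th17n Div.1 instead of 3, adding Itgb7 (adjusted p = 0.0341) and Ccr4 (0.0442), and 2 instead of 1 for the DHEA difference between types in Div.1, adding Itgb7 (adjusted p = 0.00869). That block also called Ccr8 for EGCG in Th17n Total (-0.28, adjusted p = 0.0379) and the EGCG difference of Itgb7 between types in Total (adjusted p = 0.0317) and Div.1 cells (0.0466). Counts in the other comparisons stayed within 1.5 times with it. Total and Div.1 libraries of the same column, cell type and treatment correlated positively in all 38 pairs, by over 0.1 in 19 (median 0.10, range 0.02 to 0.32). No label ties them to 1 culture. A block of well column within cell type and treatment, added after seeing the data for the comparisons of the sorts, gave 1 member called instead of 0 in each of 3 comparisons. They were Ccr8 for the DHEA difference between sorts in Th17n (-0.40, adjusted p = 0.0125), Itgb7 for that in Th17p (-0.36, adjusted p = 0.00991) and Itgb7 between the sorts in Th17p (0.14, adjusted p = 0.046). The other 3 comparisons of the sorts kept their counts. Over all genes this block raised the calls for the EGCG difference between sorts from 274 to 717 in Th17p and from 1420 to 2167 in Th17n. For the DHEA difference they went from 1058 to 1769 and from 725 to 1453. Between the sorts themselves they went from 2069 to 2496 and from 2337 to 3030. The main tests of the sorts took no account of this tie.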
